A study of Mus musculus with 6 samples.

Results

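Insulin signaling and glucose uptake were followed in cold-acclimated inguinal white adipose tissue (iWAT) through 10 genes: Insr, Irs1, Irs2, Pik3r1, Akt2, Foxo1, Tbc1d4, Slc2a4, Slc2a1 and Hk2. The rule that selects them uses gene names and no measured value. All 10 were among the 16538 genes listed, and all 10 passed the filter on low values that left 13855 genes for testing. RNA-Seq was performed on iWAT of control mice, labelled wt and called fl/fl in the study, so that they carry the floxed Nrg4 alleles, and of NRG4-AKO mice, in which Adiponectin-Cre deletes floxed Nrg4 in adipocytes. Both groups were kept at 8°C for 10 days by the labels. The paper gives a longer stay. Each group had 3 samples, and each sample was RNA pooled from 2 mice of the same genotype. Age and sex were not given in the sources used here.

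Gene positions below are those of GENCODE M21 on GRCm38, and the value of a gene sums the reads over all its exons.

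Insulin binds its receptor on the adipocyte surface, and the receptor phosphorylates adaptor proteins that recruit phosphoinositide 3-kinase. The lipid that this kinase makes brings AKT to the membrane, where AKT inactivates the RAB GTPase-activating protein TBC1D4, so that GLUT4 vesicles move to the surface, and excludes FOXO1 from the nucleus. Most of this control acts on proteins by phosphorylation and traffic, which mRNA levels do not measure. In brown and beige fat, cold also raises glucose uptake, and hexokinase holds the entering glucose in the cell as glucose 6-phosphate.

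Values are normalized counts, the reads of a gene divided by a factor for the sample's depth. The samples held 17570335 to 18373707 reads on the listed genes. Nrg4, the targeted gene, was at 3128, 3102 and 3092 in control replicates 1 to 3 and at 2577, 2627 and 2691 in AKO replicates 1 to 3. The highest AKO value was below the lowest control value, and most of the Nrg4 signal was still present (log2 fold change -0.24 ± 0.05 SE, limma adjusted p = 0.298). The deleted part of Nrg4 was not examined separately. By qPCR the paper found almost no Nrg4 mRNA in AKO iWAT, a measure unlike a count over all exons. Adipoq, the adipocyte hormone adiponectin, was at 28174 to 36454 in all samples, while the summed skeletal muscle markers (27 of 28 listed) ranged from 791 to 33523 in control and from 24853 to 141540 in AKO. Control replicate 1 was the sample with the least muscle RNA, with Acta1 (skeletal muscle actin) at 62.2, Myh4 (a fast myosin) at 8.03 and Atp2a1 (the calcium pump of fast fibres) at 25.1, against at least 3498, 2699 and 2457 in the other samples, and Myh7, Myoz1 and Xirp2 were at 0 in at least 1 sample. Lymphocyte markers were high in control replicate 1 and AKO replicate 2, with sums of 1525 and 2111 against 264 to 307 in the other samples. Ucp1, the uncoupling protein of thermogenic fat, was at 16827 to 25393 in control and 4836 to 7801 in AKO (log2 fold change -1.75, limma adjusted p = 0.0703). For Ucp1 the adjusted p was 0.0861 in edgeR and 1.66e-06 in DESeq2.

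None of the 10 members passed an adjusted p of 0.05 in limma, the test used throughout on log2(normalized count + 1), and the count was also 0 in edgeR and DESeq2. Of all tested genes 0.0144% passed in limma, 0.0144% in edgeR and 1.1% in DESeq2. At an unadjusted p under 0.05, 1 member (Irs1, lower in AKO) passed in limma, edgeR and DESeq2, beside 9.1%, 9.27% and 7.41% of all tested genes. In limma 4.69% of all tested genes passed on the lower side and 4.41% on the higher side. The 10 log2 fold changes lay between -0.24 and 0.09, with a median of -0.03 against 0.01 over all tested genes. For 9 members the 95% confidence interval of the difference held 0, and for 9 the groups overlapped, whereas groups that did not overlap were found for 14.5% of all tested genes. The median size of the log2 fold change was 0.0583 for the members and 0.0744 for the 6835 tested genes at least as abundant as the lowest member, with median SEs of 0.0848 and 0.0838. A design of 3 samples against 3 cannot reach a 2-sided exact permutation p under 0.1, and p-values here measure the spread between pools.

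**Figure D1:**
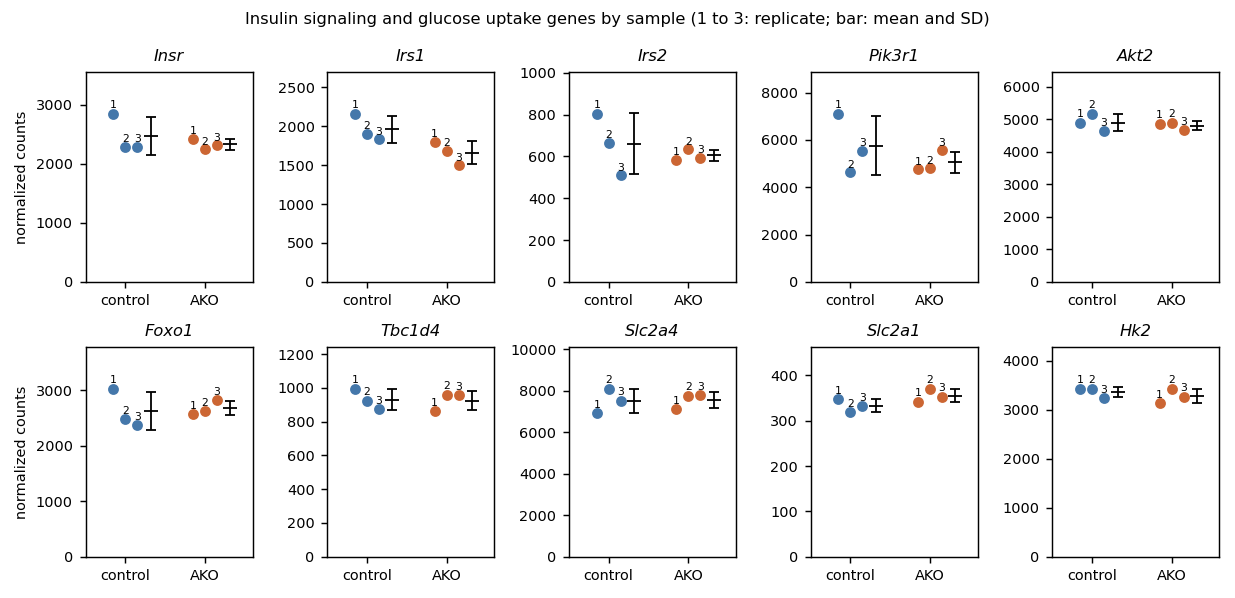
Normalized counts of each of the 10 genes in the 3 control and 3 AKO samples, 1 panel a gene, with points for samples and bars for the mean and SD. The groups overlap in every panel except that of Irs1, where the 3 AKO values lie below the 3 control values.

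Insr (chr8:3122061-3279617, minus strand) encodes the insulin receptor, which binds the hormone and starts the cascade as a tyrosine kinase. Its normalized count was 2848, 2292 and 2285 in control replicates 1 to 3 and 2425, 2249 and 2316 in AKO replicates 1 to 3. Control replicate 1 stood above the other 5 samples, which lay close together, and the groups overlapped. AKO differed from control by a log2 fold change of -0.08 ± 0.09 SE (95% interval -0.30 to 0.14, limma adjusted p = 0.855). The interval spans -18.6% to 9.93% on the linear scale.

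Irs1 (chr1:82233101-82291416, minus strand) encodes an adaptor that the activated receptor phosphorylates and that carries docking sites for phosphoinositide 3-kinase. Its normalized count was 2159, 1902 and 1830 in control replicates 1 to 3 and 1798, 1686 and 1502 in AKO replicates 1 to 3. The groups did not overlap, with AKO lower, and the gap between the nearest samples, 1830 and 1798, was small beside the spread within each group. The means were 1964 ± 173 and 1662 ± 149 (SD, n = 3), and the log2 fold change was -0.24 ± 0.09 SE (95% interval -0.45 to -0.03, limma unadjusted p = 0.0297 and adjusted p = 0.513). The exact permutation p was 0.1, the smallest that 3 against 3 can give. Groups that did not overlap with AKO lower were found for 8.31% of all tested genes. Without control replicate 1 the limma log2 fold change of Irs1 was -0.17 (unadjusted p = 0.0924), and without AKO replicate 3 it was also -0.17 (unadjusted p = 0.109). With the muscle score of each sample as a covariate it was -0.12 (limma unadjusted p = 0.189). Of the exonic bases of Irs1, 30.9% are shared with Gm9747, a gene annotated on the opposite strand. Whether the counting used strand was not stated in the sources used here, so that reads of the 2 genes cannot be told apart in that stretch.

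Irs2 (chr8:10984681-11008458, minus strand) encodes the second main adaptor of the receptor. Its normalized count was 804, 666 and 513 in control replicates 1 to 3 and 585, 635 and 595 in AKO replicates 1 to 3. The 3 AKO values fell inside the range of the control values, whose SD was 145 against 26.3 in AKO. This gave a log2 fold change of -0.10 ± 0.15 SE (95% interval -0.45 to 0.24, limma adjusted p = 0.889), which became 0.05 without control replicate 1 and -0.28 without control replicate 3. The log2 ratio of Irs1 to Irs2 within a sample, which does not depend on the scaling of the sample, was 1.59 ± 0.21 in control and 1.45 ± 0.15 in AKO (SD, n = 3, exact permutation p = 0.5). Per length of the exon model, Irs1 had between 1.75 and 2.46 times the level of Irs2 in the 6 samples.

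The sequences just before the start of the 2 adaptor genes are shown because Irs1 was the member furthest apart between the groups and Irs2 is its closest relative among the members. Each is the 250 bases upstream of the start in RefSeq on GRCm38.p6, on the strand of the gene, at chr1:82291440-82291689 (minus strand) for Irs1 and chr8:11008930-11009179 (minus strand) for Irs2. Capitals mark matches on either strand to GGGCGG (GC box) and CACGTG (E-box).
Irs1: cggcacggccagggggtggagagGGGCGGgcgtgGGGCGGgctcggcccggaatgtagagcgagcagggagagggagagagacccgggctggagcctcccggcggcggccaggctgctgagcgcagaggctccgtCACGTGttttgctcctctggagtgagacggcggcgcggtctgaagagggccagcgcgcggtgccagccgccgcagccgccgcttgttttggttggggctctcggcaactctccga
Irs2: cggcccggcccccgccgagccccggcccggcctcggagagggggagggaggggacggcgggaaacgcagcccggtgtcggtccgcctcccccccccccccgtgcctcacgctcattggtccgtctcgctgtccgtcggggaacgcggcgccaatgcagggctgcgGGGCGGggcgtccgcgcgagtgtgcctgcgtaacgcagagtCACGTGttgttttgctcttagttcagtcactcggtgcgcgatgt
The letters CACGTG begin 115 bases before the start in Irs1 and 44 bases before it in Irs2. Of 32851 mouse promoter windows of this length, 6.02% hold CACGTG and 32.7% hold GGGCGG. Of the 12 windows of the 8 members with an entry, 2 hold CACGTG and 8 hold GGGCGG. The FOXO site letters TGTTTAC, found in 3.17% of all windows, are in 0 of the 12.

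Pik3r1 (chr13:101680563-101768217, minus strand) encodes p85alpha, the regulatory subunit that brings phosphoinositide 3-kinase to the adaptors. Its normalized count was 7103, 4645 and 5542 in control replicates 1 to 3 and 4792, 4818 and 5558 in AKO replicates 1 to 3. Control replicate 1 was the highest sample by a wide margin, 40.1% above the mean of the other 5, and those 5 overlapped across the groups. For Pik3r1 the log2 fold change was -0.17 ± 0.15 SE with all samples and -0.01 without control replicate 1 (limma adjusted p = 0.787 and 0.984). Without control replicate 2, the lowest sample, it was -0.31 (limma unadjusted p = 0.0386, adjusted p = 0.729). Akt2 (chr7:27591552-27640826, plus strand) encodes the AKT kinase most closely tied to glucose uptake in fat. It ranged from 4627 to 5167 in control and from 4667 to 4892 in AKO, and the AKO range lay within the control range. Its log2 fold change was -0.02 ± 0.06 SE (95% interval -0.17 to 0.12, limma adjusted p = 0.947), so that the interval spans -11.2% to 8.85%.

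Foxo1 (chr3:52268336-52353221, plus strand) encodes a transcription factor that AKT keeps out of the nucleus. Its normalized count was 3021, 2473 and 2371 in control replicates 1 to 3 and 2576, 2618 and 2812 in AKO replicates 1 to 3. The highest and the lowest sample were both controls, and the groups overlapped. The log2 fold change was 0.03 ± 0.10 SE (95% interval -0.19 to 0.26, limma adjusted p = 0.955), and without control replicate 1 it was 0.14 (limma unadjusted p = 0.0780). Tbc1d4 (chr14:101442360-101609191, minus strand) encodes AS160, the AKT substrate that restrains GLUT4 vesicles. It ranged from 873 to 994 in control and from 860 to 958 in AKO, and its log2 fold change was -0.01 ± 0.08 SE (95% interval -0.19 to 0.17, limma adjusted p = 0.987). The spread of Tbc1d4 was alike in the groups, with SDs of 60.9 and 55.5 (n = 3).

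The upstream windows of Pik3r1 and Foxo1 are shown beside those of Irs1 and Irs2 because these 4 genes and Insr stood furthest above the other samples in control replicate 1. They are at chr13:101768218-101768467 (minus strand, the window furthest upstream of those listed for Pik3r1) and chr3:52268087-52268336 (plus strand) on GRCm38.p6 in RefSeq, with GGGCGG matches on either strand in capitals.
Pik3r1: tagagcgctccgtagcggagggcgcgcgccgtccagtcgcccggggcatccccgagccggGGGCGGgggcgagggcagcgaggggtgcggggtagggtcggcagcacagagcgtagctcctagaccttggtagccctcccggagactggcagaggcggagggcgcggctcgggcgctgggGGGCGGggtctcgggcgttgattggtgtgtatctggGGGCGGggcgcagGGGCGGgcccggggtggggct
Foxo1: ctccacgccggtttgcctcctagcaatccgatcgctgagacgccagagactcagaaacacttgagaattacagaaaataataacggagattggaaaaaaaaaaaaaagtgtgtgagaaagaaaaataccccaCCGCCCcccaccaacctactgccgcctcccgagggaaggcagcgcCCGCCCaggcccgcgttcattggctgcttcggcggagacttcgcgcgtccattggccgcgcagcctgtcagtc
Pik3r1 holds 4 such matches and Foxo1 holds 2, both of the latter on the opposite strand. A match describes the letters only.

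Slc2a4 (chr11:69942539-69948188, minus strand) encodes GLUT4, the transporter that insulin moves to the adipocyte surface. Its normalized count was 6920, 8092 and 7521 in control replicates 1 to 3 and 7122, 7771 and 7781 in AKO replicates 1 to 3. The AKO values lay within the control range, and the lowest sample was control replicate 1. The means were 7511 ± 586 and 7558 ± 378 (SD, n = 3), with a log2 fold change of 0.01 ± 0.08 SE (95% interval -0.17 to 0.19, limma adjusted p = 0.985). The interval spans -11.02% to 14.1%. GLUT4 and hexokinase 2 are also made in skeletal muscle. The muscle marker sum differed 179-fold between the lowest and the highest sample, and the highest Slc2a4 value was 1.17 times the lowest. The part of muscle RNA in the Slc2a4 values was not tested. With the muscle score as a covariate the log2 fold change of Slc2a4 was -0.09.

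Slc2a1 (chr4:119108711-119137983, plus strand) encodes GLUT1, the transporter of basal glucose uptake. It ranged from 319 to 347 in control and from 342 to 370 in AKO, which overlapped at the edge of each range. The log2 fold change was 0.09 ± 0.08 SE (95% interval -0.09 to 0.27, limma adjusted p = 0.791). The SDs of Slc2a1, 13.9 and 14.3, were below the counting error at its depth, so that they understate its error. Hk2 (chr6:82725025-82774454, minus strand) encodes the insulin-responsive hexokinase. It was among the steadiest members, with 3239 to 3425 in control, 3137 to 3429 in AKO and a highest value 1.09 times the lowest. For Hk2 the log2 fold change was -0.04 ± 0.06 SE (95% interval -0.18 to 0.10, limma adjusted p = 0.909).

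Control replicate 1 was the highest of the 6 samples for 6 of the 10 members (Insr, Irs1, Irs2, Pik3r1, Tbc1d4 and Foxo1), and it was the highest for 16.8% of all tested genes. In that sample Insr was 23.1%, Irs1 23.8%, Irs2 34.3%, Pik3r1 40.1%, Foxo1 17.5% and Tbc1d4 8.79% above the mean of the other 5 samples. Slc2a4 went the other way and was at its lowest in that sample. Pde3b, a phosphodiesterase that AKT activates and the most abundant gene of the PI3K, AKT and mTOR list, stood 25.5% above the mean of the other 5 there. Of the 141 tested genes of the pathway lists described below, 19.9% were highest in that sample, near the 16.8% of all tested genes. By list this share ran from 0% (other glucose transporters and hexokinases) to 33.3% (receptor and adaptor genes). It was 32% in the PI3K, AKT and mTOR list. Control replicate 1 was also the sample with the lowest level of 24 of the 25 muscle markers tested, and it was high in lymphocyte markers together with AKO replicate 2. The part of the lymphocyte markers and of the muscle markers in the members' values was not tested. The muscle score was 3.15 in control replicate 1 and 7.72 to 9.91 in the other 5 samples. The muscle covariate therefore cannot separate muscle RNA from other traits of control replicate 1. In bulk tissue, fewer cells of a type and less RNA per cell cannot be told apart.

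**Figure D2:**
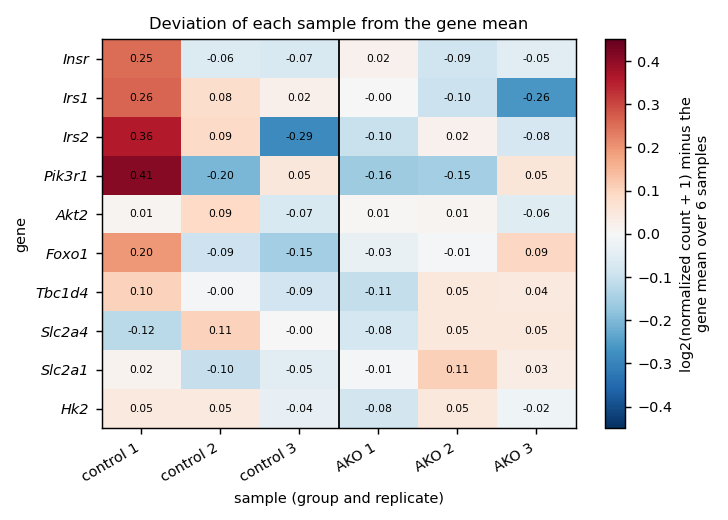
Log2 normalized count of each member in each of the 6 samples, as the difference from the mean of that gene over the 6 samples, in a colour scale. Control replicate 1 holds the highest value in 6 of the 10 rows, and Slc2a4 is at its lowest there.

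Levels were compared between genes per length, in RPKM, computed here from the recovered reads, the exon model of each gene and the total of reads on the listed genes. Slc2a4 was the highest member at 121 on this scale, 3.18 times Akt2 at 37.9. Hk2 at 31.0 and Pik3r1 at 29.9 followed, and their ranges over the 6 samples overlapped. Foxo1 was at 17.0, Irs1 at 11.03 and Insr at 9.74, and the ranges of Irs1 and Insr overlapped. Tbc1d4 at 6.73, Irs2 at 5.58 and Slc2a1 at 5.47 were the lowest members, and neighbours among these 3 had overlapping ranges. The ranges of all other neighbours in this order did not overlap.

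Each of 8 members was set beside a close relative in the same sample. GLUT4 mRNA was 20.1 to 25.5 times GLUT1 mRNA per length in the 6 samples, and Hk2 was 5.30 to 6.17 times Hk1. Foxo1 exceeded Foxo3 11.9- to 15.4-fold. Akt2 was below Akt1, the broadly expressed AKT kinase, at 0.805 to 0.908 of its level. The Insr to Igf1r ratio sets the insulin receptor against the related receptor of IGF1. It was the 1 of the 8 whose groups did not overlap, beside 14.5% of all single genes tested. Its log2 values were 2.37, 2.19 and 2.33 in control replicates 1 to 3 and 2.06, 1.91 and 2.11 in AKO replicates 1 to 3, a difference of -0.26 (exact permutation p = 0.1, adjusted over the 8 pairs 0.8). Igf1r itself was at 455 to 550 in control and 534 to 597 in AKO. The pairs Pik3r1/Pik3r2 and Tbc1d4/Tbc1d1 differed by -0.19 and -0.18 on the log2 scale, and their groups overlapped. Leaving out a sample moved these differences to between -0.28 and -0.05 for Pik3r1/Pik3r2, the latter without control replicate 1, and to between -0.26 and -0.10 for Tbc1d4/Tbc1d1. The differences of the other 7 ratios lay between -0.19 and 0.02, with exact permutation p from 0.3 to 0.9.

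Genes whose centred log2 values lay closest to those of a member over the 6 samples were sought among 10302 genes with a mean of at least 100, by the root mean square difference. For Slc2a4 these were Drg2 (0.0173), Psmd8 (0.0200) and Isca2 (0.0227). For Irs1 they were Rmi1 (0.0192), Spaca6 (0.0421) and Celsr2 (0.0446), and for Irs2 they were Birc6 (0.0624), Cdh2 (0.0630) and Ccdc17 (0.0706), so that the nearest genes of Irs2 were further off. For Hk2 they were Mms19 (0.00788), Mkl2 (0.0158) and Bad (0.0184), and for Slc2a1 they were H2afy (0.0137), Uhrf1bp1 (0.0219) and 3110040N11Rik (0.0238). These are descriptions over 6 samples that share their groups.

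The rest of the pathway was taken from 7 lists with 141 tested genes of 146. None passed an adjusted p of 0.05 in limma or edgeR, and 1 (Pdk4) did in DESeq2. At an unadjusted p under 0.05 in limma, 8 were lower and 5 higher in AKO, beside 4.69% and 4.41% of all tested genes. The same shares apply to the counts of the single lists below. The median log2 fold change of the 141 genes was 0.00. Among 12 receptor and adaptor genes 0 passed at the unadjusted threshold, and the most abundant of them, the adaptor Sh2b2, was at 1860 to 2040.0 in control and 1744 to 1975 in AKO. Among 27 genes of GLUT4 vesicle traffic 0 passed.

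Of 25 genes of the PI3K, AKT and mTOR group, 2 passed unadjusted and both were lower in AKO. Gsk3a, the glycogen synthase kinase 3 alpha that AKT inhibits, was at 1658, 1855 and 1947 in control and 1445, 1496 and 1592 in AKO (log2 fold change -0.27, limma unadjusted p = 0.00902). Mtor, the kinase at the centre of growth control, was at 1940, 2435 and 2039 in control and 1693, 1862 and 1763 in AKO (log2 fold change -0.26, limma unadjusted p = 0.0213). In both genes the AKO samples lay below the control samples. Of the exonic bases of Gsk3a, 28.3% are shared with 9130221H12Rik, annotated on the opposite strand. Gsk3a kept an unadjusted p under 0.05 in limma whichever sample was left out. Mtor did not without control replicate 2, AKO replicate 1 or AKO replicate 3, and without control replicate 2 its log2 fold change was -0.17. Of 24 negative regulators, Inppl1 (the lipid phosphatase SHIP2, log2 fold change -0.22) and Grb14 (an inhibitor of the receptor, -0.33) were lower and Sesn1 (a stress-induced inhibitor of mTORC1, 0.28) was higher at the unadjusted threshold. Deptor, an mTOR inhibitor and the most abundant of these regulators, was at 4133 to 4345 in control and 3670 to 4677 in AKO. In the list of other glucose transporters and hexokinases (12 genes tested), Slc2a6 was higher at the unadjusted threshold, at normalized counts of only 7.53 to 24.97. The most abundant gene of that list, G6pc3, encodes a glucose 6-phosphatase, not a transporter or hexokinase. It was at 996 to 1032 in control and 968 to 992 in AKO. The unadjusted calls of Inppl1, Grb14, Sesn1 and Slc2a6 were each lost in 3 of the 6 limma fits that left out a sample. These were the fits without control replicate 2 or AKO replicate 2 or 3 for Inppl1 and without control replicate 3 or AKO replicate 2 or 3 for Grb14. For Sesn1 they were those without control replicate 2 or AKO replicate 1 or 3, and for Slc2a6 those without control replicate 2 or AKO replicate 1 or 2. Without control replicate 2 the log2 fold change of Inppl1 was -0.14. The call of Inppl1 was also lost in limma-voom and with total-read scaling, and that of Grb14 with the muscle covariate and total-read scaling. That of Slc2a6 was also lost in DESeq2 and with the replicate block. Of the exonic bases of Inppl1, 20.3% are shared with genes annotated on the opposite strand.

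Of 19 glycogen and glucose-sensing genes, Gys1, the glycogen synthase of muscle and fat, was lower (7114, 7780 and 7027 in control against 6340, 6524 and 6682 in AKO, log2 fold change -0.16) and Ppp1r3c, which targets a phosphatase to glycogen, was higher (0.48), both at the unadjusted limma threshold. The call of Gys1 was lost in edgeR, in limma-voom, with total-read scaling and without control replicate 2 or any of the AKO replicates. That of Ppp1r3c was lost with the muscle covariate, without control replicate 2 (0.32) and without AKO replicate 3 (0.27). Pygm, the muscle glycogen phosphorylase, named after its values were seen, was also higher at the unadjusted limma threshold (log2 fold change 2.77). It was at 99.3 in control replicate 1 and 7642 in AKO replicate 3, the samples with the lowest and the highest sum of muscle markers. Txnip, an inhibitor of glucose uptake and the most abundant gene of this list, was at 14862 to 20824 in control and 11624 to 17253 in AKO.

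The FOXO factors and textbook FOXO targets, 22 genes, had a median log2 fold change of -0.08, against 0.01 over all tested genes. At an unadjusted p under 0.05 in limma 3 were lower and 1, Bcl6, a transcriptional repressor named after its values were seen, was higher (log2 fold change 0.79). The call of Bcl6 was lost in DESeq2, with the muscle covariate, without control replicate 3 (0.45) and without AKO replicate 1. In 6 of the 22 genes the groups did not overlap and AKO was lower, and in 0 they did not overlap with AKO higher. Over all tested genes these shares were 8.31% and 6.14%. The 6 were Pck1, Pdk4, Sod2, Pnpla2, Cat and Atg12, with Cat and Atg12 named after their values were seen. Pdk4, the kinase that shuts pyruvate dehydrogenase and spares glucose, was at 5438, 8743 and 4960 in control and 2587, 2996 and 3031 in AKO. The log2 fold change of Pdk4 was -1.11 (limma unadjusted p = 0.000481, adjusted p = 0.205), and in DESeq2 it was -1.15 with an adjusted p of 0.00641. Pck1, which makes glycerol 3-phosphate for fat storage in adipocytes, was at 44001, 63931 and 49893 in control and 37792, 38719 and 42767 in AKO (log2 fold change -0.39, limma unadjusted p = 0.0255). The unadjusted call of Pck1 was lost without control replicate 2, where its log2 fold change was -0.24, and without AKO replicate 1 or 2, while those of Pdk4 and Sod2 held whichever sample was left out. Sod2, the mitochondrial superoxide dismutase, had a log2 fold change of -0.28, and Pnpla2, the triglyceride lipase ATGL and the most abundant of the list, had one of -0.22. Several of these genes are also abundant in thermogenic fat, whose 9 markers summed to 28856 to 41078 in control and 12435 to 16161 in AKO, and the part of that difference in these values was not tested. The adipocyte markers summed to 937157 to 966052 in control and 768868 to 919941 in AKO.

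**Figure D3:**
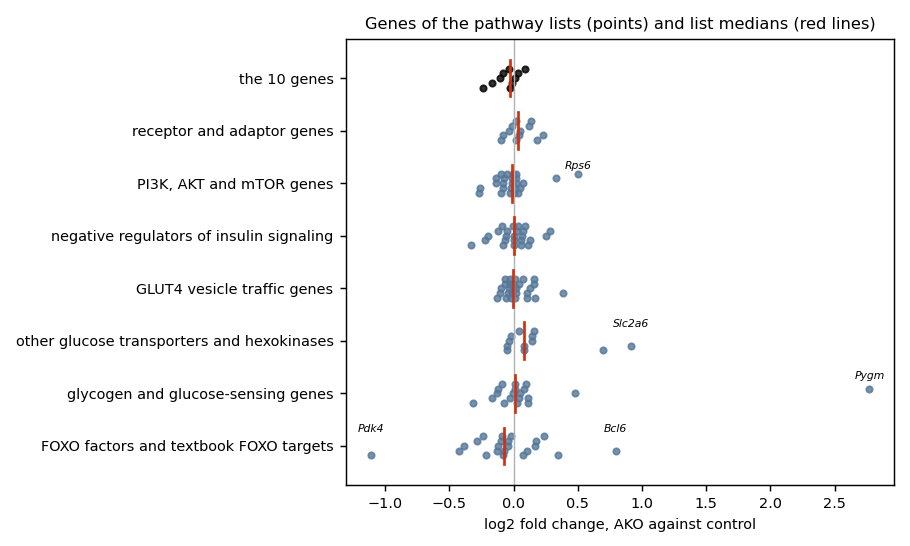
Log2 fold change, AKO minus control, of each tested gene in the 7 pathway lists and the 10 members, a point for each gene and a line for the median of each list. The medians lie between -0.08 and 0.08, and Pygm at 2.77 and Pdk4 at -1.11 lie furthest out.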

How the data were processed

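RNA-Seq of iWAT was available for control and AKO mice acclimated to cold, with 3 samples per group, grouped by the genotype in the labels. The authors aligned reads with STAR to GRCm38.p6 (mm10 in the submitters' processing notes), counted them with featureCounts on GENCODE M25 and deposited a signal per sample for 16538 listed genes, which is the number of reads over the DESeq2 size factor of the sample, with no correction for gene length. Strand use in counting was not given in the sources used here. The authors also deposited log2 fold changes from DESeq2 for AKO against control. The p-values and adjusted p-values of that comparison, also deposited, and these fold changes were not used. All per-sample columns were matched to a sample.

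limma (version 3.58.1, R 4.3.3) with a variance trend was fitted on log2(value + 1) for 13855 genes (mean signal 10 or more), with Benjamini-Hochberg adjustment over all of them and a threshold of 0.05. Because of the added 1, fold changes of genes with few reads come out too small. Values were whole multiples of the value of a single read, which gave whole reads for 100% of values within 0.001, and the quasi-likelihood test of edgeR (version 4.0.16), limma-voom and DESeq2 (version 1.42.0) were run on them. Depth was 17570335 to 18373707 reads per sample. Within each group, the reads of any pair of samples differed by more than sampling noise, so all 6 samples were counted separately. Single genes and within-sample ratios were compared with a 2-sided exact permutation test. Exon lengths and overlaps came from GENCODE M21, and promoter sequences and motif shares from RefSeq. The tests were checked on simulated data.

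The members and the gene lists were chosen with earlier results of these data known. Genes named are the members, their paralogs, and from each pathway list up to 3 genes in each direction with the smallest unadjusted p under 0.05 and groups that did not overlap, plus the gene with the highest mean. Nrg4, Ucp1, Adipoq, the genes most like 5 members and the most abundant markers of each cell type were also covered. A few genes were picked by their values, as said beside them, and some that the rule covers are not reported here. Alternatives were other pseudocounts (0.1 and 10), filters, tools, scalings, a muscle score covariate, a replicate block and leaving out each sample.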

Additional observations from a re-analysis of the deposited data

How the results depend on the processing

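No member passed the adjusted threshold under any alternative. The count of all genes called, 2 in limma, was 6 with at least 10 normalized counts in every sample, 152 with DESeq2, 0 with the muscle score as a covariate and 0 to 3 when a sample was left out. Of the pathway genes, 1 (Pdk4) was called with DESeq2. The count of members with an unadjusted p under 0.05, 1 in limma, was 0 with limma-voom, with total-read scaling and with the muscle covariate, and 0 to 2 when a sample was left out. In the limma fit across all genes, Irs1 missed this threshold without control replicate 1 or AKO replicate 3, at an unadjusted limma p of 0.0924 and 0.109. Irs2 passed it without control replicate 3 and Pik3r1 without control replicate 2, at an unadjusted limma p of 0.0338 and 0.0386. The log2 fold change of Irs1 was negative under every alternative run (adjusted p from 0.242 to 0.789 in limma, edgeR and DESeq2).

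The log2 fold changes of 8 members changed sign under at least 1 alternative, while those of Irs1 and Slc2a1 did not. With the muscle covariate it was -0.091 for Slc2a4, 0.071 for Insr, 0.066 for Irs2, 0.045 for Pik3r1 and 0.031 for Tbc1d4. With total-read scaling it was 0.034 for Akt2, 0.022 for Hk2 and 0.050 for Tbc1d4. With limma-voom it was 0.000175 for Akt2 and 0.0235 for Tbc1d4, and Tbc1d4 was at 0.0031 with edgeR and 0.0037 with TMM factors. Leaving out a sample gave -0.047 to 0.066 for Slc2a4, -0.13 to 0.025 for Insr, -0.28 to 0.048 for Irs2, -0.065 to 0.015 for Akt2, -0.054 to 0.042 for Tbc1d4, -0.036 to 0.14 for Foxo1 and -0.31 to -0.0085 for Pik3r1. The same gave log2 ratio differences of -0.17 to 0.0050 for Slc2a4/Slc2a1, -0.0432 to 0.0432 for Akt2/Akt1, -0.042 to 0.068 for Hk2/Hk1, -0.22 to -0.015 for Irs1/Irs2, -0.28 to -0.051 for Pik3r1/Pik3r2, -0.26 to -0.10 for Tbc1d4/Tbc1d1, -0.25 to -0.062 for Foxo1/Foxo3 and -0.32 to -0.20 for Insr/Igf1r. The cause of these changes was not tested. No scaling moved the median of all genes by more than 0.0587 on the log2 scale.

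Same-numbered samples are pools of different mice, and the deviations of samples with the same number correlated at 0.135, -0.351 and 0.240, so that the numbers were not taken to pair the samples. With the replicate block in limma, 2 genes and 0 members were called, and Irs1 had an unadjusted p of 0.00663 and an adjusted p of 0.242. With 3 pools a group, differences within the printed intervals were not excluded.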

Other observations

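The other cell types that iWAT can hold were followed by fixed marker lists, as summed normalized counts. Macrophage markers (11 genes, with Lyz2 the most abundant) summed to 11924 to 16927 in control and 14762 to 20240 in AKO. Of the 11, 5 were higher in AKO at an unadjusted p under 0.05 in limma, 0 at an adjusted p. Of all tested genes, 4.41% were higher at that unadjusted threshold. Markers of adipose progenitors and fibroblasts (9 genes, led by Col3a1) summed to 67748 to 96537 and 80739 to 109032, with 4 higher at the unadjusted threshold and 0 adjusted. Endothelial markers (10 genes) summed to 23090 to 25229 and 21361 to 24239, and Schwann cell markers (8 genes) to 14585 to 16785 and 14884 to 18059. Of the Schwann cell markers 2 were higher at an unadjusted p under 0.05 in limma without overlap between the groups, and 0 were at an adjusted p. They were Pmp22 and Ngfr, the latter named after its values were seen. Of all tested genes, 6.14% were higher without overlap. The median log2 fold change of the 8 Schwann cell markers was 0.02, and 3 of them were lower. Mammary epithelial markers (8 of 10 listed) were low and uneven, at 35.5 to 1080 in control and 176 to 1626 in AKO, with Krt8, Krt14, Krt5 and Epcam at 0 in at least 1 sample. In each of these 5 lists the ranges of the groups overlapped.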
